A study of Mus musculus with 4 samples.

Results

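The renal pelvis is lined by urothelium, and the spots that hold this lining were examined in 4 mouse kidney sections profiled by Visium, a spatial method in which polyadenylated RNA is counted on an array of barcoded spots. Members were chosen within each section. For every tissue spot the counts were pooled with those of the array neighbours (6 at most), and a spot was a member if the pool held at least 10 counts of Upk1a, Upk1b, Upk2, Upk3a, Krt5 and Psca and if the share of these 6 genes among all pooled UMIs (unique molecular identifiers, 1 per captured transcript) put the spot in the top 3% of its section. In all, 312 of 10312 tissue spots were members, with 79 of 2616 in normal section 1, 81 of 2682 in normal section 2, 73 of 2401 in ischemic section 1 and 79 of 2613 in ischemic section 2. The study asked where double negative (DN) T cells lie in normal and injured kidney, and its spatial data are used here for the pelvic lining.

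Sections came from left kidneys of male wild type C57BL/6J mice aged 7 to 8 weeks, cut at 10 µm. Normal kidneys had no ischemia. Ischemic kidneys were taken 24 h after 30 min of bilateral ischemia. No transgene or agent was carried by either group. The study used 2 mice per condition and 2 technical replicates of each mouse, and which mouse gave which section is not stated in the labels, so p-values measure the spread between these sections, which may be technical. A spot can hold several cell types, and in sums over spots fewer cells of a type and less RNA per cell cannot be told apart.

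Urothelium is a layered epithelium. Basal cells carry the keratins KRT5 and KRT14 and the transcription factor p63, intermediate cells lie above them, and umbrella cells face the urine. Umbrella cells make the uroplakins UPK1A, UPK1B, UPK2 and UPK3A, membrane proteins that assemble as pairs into the crystalline plaques of the luminal surface. PSCA is a surface protein of urothelium and other lining epithelia. The pelvic layer is thinner than that of the bladder and lies on a coat of fibroblasts and smooth muscle, next to the papilla.

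Member spots formed few patches, which follows in part from the rule, since it pools counts over neighbouring spots. The members of normal section 1 made 6 connected patches with 67 spots in the largest, which reaches the edge of the array, and those of normal section 2 made 9 with 34 and 31 spots in the largest pair. In ischemic section 1 they made 2 patches of 50 and 23 spots, and in ischemic section 2 they made 4 with 69 spots in the largest. In all 4 sections the share of members on the outline of the tissue was above that of other spots, at 24.1%, 29.6%, 15.1% and 26.6% against 11.5%, 13.3%, 10.8% and 13.2%, in the order normal 1, normal 2, ischemic 1, ischemic 2 that is used below.

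**Figure D1:**
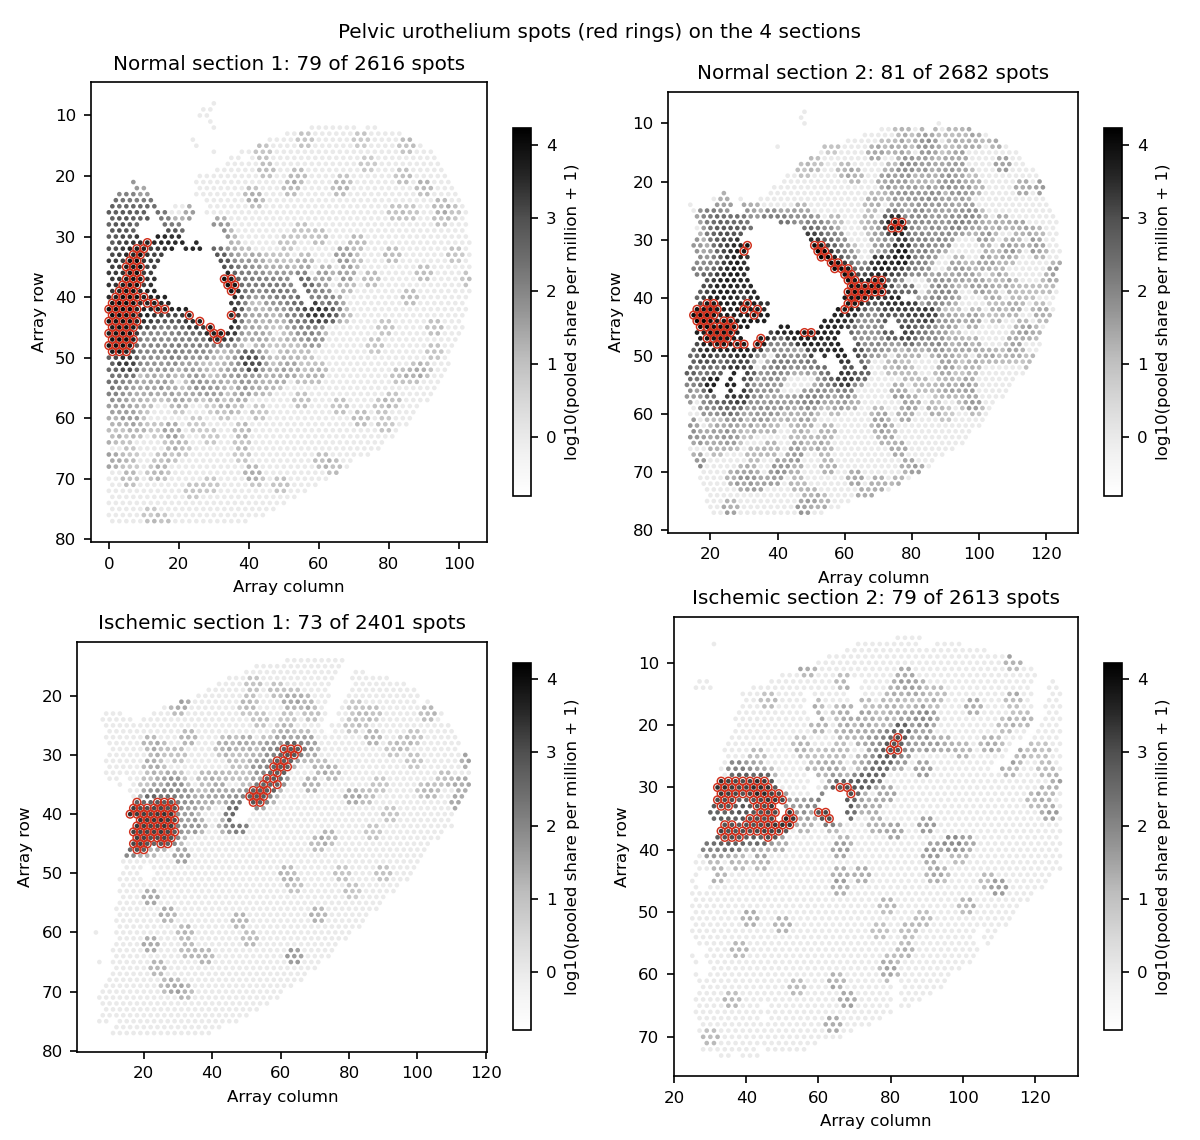
Position of the member spots on the 4 sections. Each point is a tissue spot at its array column and row, grey shading gives log10 of the pooled share of the 6 genes (CPM) plus 1, and red rings mark the 79, 81, 73 and 79 members. The rule pools counts over neighbouring spots, so patches of members follow in part from the rule.

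The sections held 44528078, 27657481, 31053530 and 25957128 UMIs over all tissue spots, and the members held 648901, 761252, 771635 and 673602. Median UMIs per spot were lower in members (5575, 5802, 9685 and 7340) than in other spots (16428, 8714, 11874 and 8920) of every section. The part of depth in the differences below was not tested. Leaving out spots under 1000 UMIs (8, 5, 5 and 2 members), which does not test depth itself, moved the count of genes called by no more than 1.5 times in the 4 comparisons where this was run, which were those without the inner medulla.

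The share that chose the members differed between conditions. In counts per 1000000 of the pooled UMIs (CPM), the lowest member held 4183 and 5946 of the 6 genes in the normal sections, with the nearest spots outside at 4182 and 5911. In the ischemic sections the lowest members held 483 and 809 CPM, with 469 and 799 just outside. Because the rule takes the top 3% everywhere, the ischemic members were drawn from a range that lies below the threshold of both normal sections. The highest ischemic spot held 2654 and 4036 CPM, against 10688 and 16701 in normal sections. Members held 58.1%, 47.4%, 75.2% and 73.9% of all counts of the 6 genes in their section, and 2, 1, 12 and 8 of them had none of these counts in the spot itself.

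Levels of the 6 rule genes are given first as a description, since they chose the spots. Values are CPM of the sum over the members. Upk1a (chr7:30603092-30612847, GRCm38, minus strand) was at 1213, 1625, 25.9 and 71.3 CPM. Upk1b (chr16:38773184-38800328, minus strand) was at 673, 832, 67.4 and 137 CPM, and Upk2 (chr9:44452715-44454976, minus strand) at 183, 344, 18.1 and 47.5 CPM. For each of these tetraspanins and their partner both normal sections lay above both ischemic ones. The same order was seen for Upk3a (chr15:85017141-85022547, plus strand), the other partner uroplakin, at 1703, 1825, 237 and 399 CPM. Psca (chr15:74714839-74717069, plus strand) was at 4255, 4414, 625 and 1024 CPM. Krt5 (chr15:101707070-101712898, minus strand), the basal keratin, ran the other way, with 35.4 and 89.3 CPM in normal members and 93.3 and 159 CPM in ischemic members.

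Each rule gene was then tested in spots that it had not chosen. Members were selected again by the other 5 genes and the gene left out was compared between members and other spots in edgeR's quasi-likelihood model, with Benjamini-Hochberg adjustment over all genes. All 6 genes were higher in members of both conditions. The log2 differences in normal sections were 4.68 for Upk1a, 5.41 for Upk1b, 5.28 for Upk2, 4.88 for Upk3a, 4.78 for Krt5 and 4.92 for Psca. In ischemic sections they were 5.44, 6.47, 6.44, 6.64, 5.91 and 6.05 in the same order. This holds for sums over members, and single spots often lacked a gene. Among members by all 6 genes, Krt5 had a count in 17.7%, 32.1%, 38.4% and 36.7% of spots. Upk1a had a count in 64.6%, 58.0%, 19.2% and 20.3%. The member difference was larger in ischemic sections, past the threshold, for Upk3a (1.76 ± 0.28, SE, adjusted p = 7.0e-06), Upk1b (1.06 ± 0.31, adjusted p = 0.017) and Psca (1.13 ± 0.33, adjusted p = 0.026). By all 6 genes, 294 and 431 other normal spots held at least 10 pooled counts, against 35 and 85 in ischemic sections. The cut at the top 3% thus left more of these genes among normal other spots, and its part was not tested.

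Sums over all tissue spots of a section do not depend on which spots were chosen. Upk1a was at 34.0, 88.9, 1.61 and 2.54 CPM of the whole section and was lower in ischemic than in normal sections by 5.12 ± 0.40 (SE) on the log2 scale (edgeR, adjusted p = 7.0e-06). Upk1b, Upk2, Upk3a and Psca were lower by 3.30, 3.49, 3.05 and 2.97. For Krt5 the log2 difference was 0.50 (adjusted p = 0.35), and for the other basal keratin Krt14 (chr11:100203162-100207548, minus strand) it was 0.13 (adjusted p = 0.81). Krt15 (chr11:100131758-100135928, minus strand), a keratin of basal cells, was lower by 1.12 (adjusted p = 0.0498).

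The balance of superficial and basal transcripts was therefore counted directly. Of the counts of Upk1a, Upk1b, Upk2, Upk3a, Krt5, Krt14 and Krt15 in members, the 4 uroplakins made up 93.2% in normal section 1 (95% exact Clopper-Pearson interval 92.2 to 94.2) and 92.0% in normal section 2 (91.0 to 92.8). In ischemic members they made up 55.2% (50.7 to 59.7) and 57.1% (53.5 to 60.6). There were 13.8 and 11.4 uroplakin counts for each basal keratin count in normal members, and 1.23 and 1.33 in ischemic members. The same shares over whole sections were 93.2%, 91.2%, 54.2% and 55.3%, so the choice of spots moved none of them by more than a few points. The intervals cover counting error only, and an exact permutation test of 2 sections against 2 cannot give a p below 0.333.

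**Figure D2:**
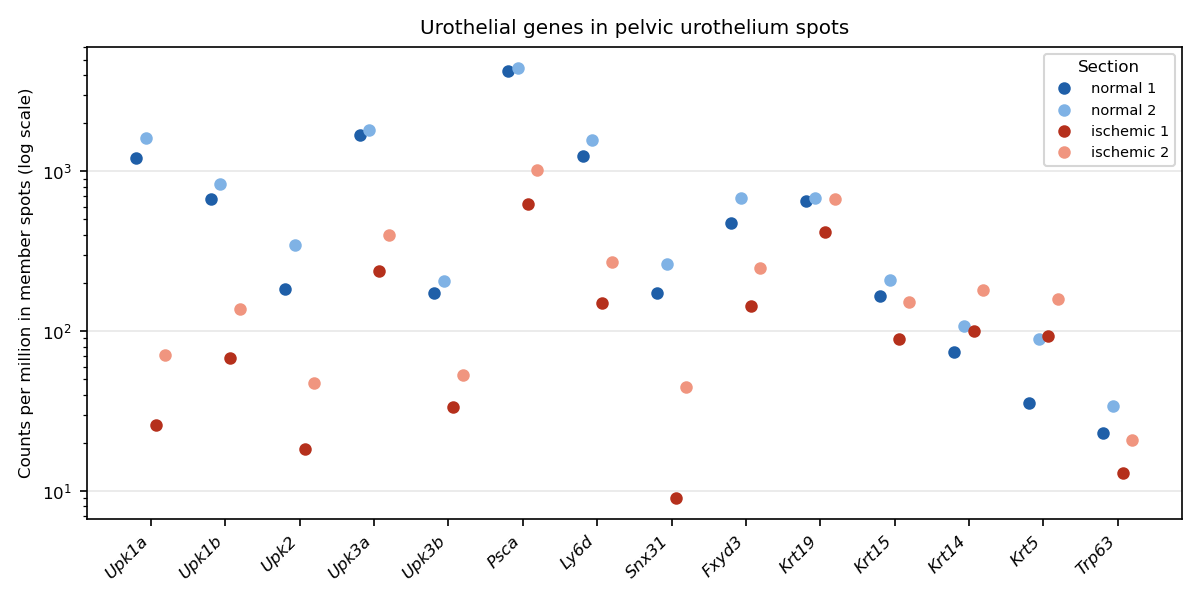
Summed level of 14 urothelial genes in the member spots of each section. The vertical axis is CPM on a log scale, each point is a section (blue normal, red ischemic), and genes run from superficial to basal. Upk1a sat at 1213 and 1625 in the normal pair, against 25.9 and 71.3 in the ischemic pair, while Krt5 sat at 35.4 and 89.3 against 93.3 and 159.

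The start regions of Upk3a and Krt5 are shown because the shares of superficial and basal transcripts differed between the conditions, and that of Upk3b, a uroplakin family gene outside these shares, because its window was found to hold the motif below. The 150 bases before the start site are given 5′ to 3′ on the gene's strand from RefSeq (GRCm38.p6), in lower case, with matches of GATAA, the core letters of GATA factor sites, in capitals on either strand. A second search for TGANTCA, the letters of AP-1 sites, found no match in them. The windows are chr15:85016991-85017140 for Upk3a, chr5:136038346-136038495 for Upk3b and chr15:101712906-101713055 for Krt5.
Upk3a: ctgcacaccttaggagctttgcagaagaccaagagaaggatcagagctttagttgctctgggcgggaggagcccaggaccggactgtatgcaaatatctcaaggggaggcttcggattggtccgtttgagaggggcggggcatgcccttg
Upk3b: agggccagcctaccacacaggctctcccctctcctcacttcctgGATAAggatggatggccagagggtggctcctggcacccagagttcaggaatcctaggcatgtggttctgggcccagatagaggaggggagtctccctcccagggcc
Krt5: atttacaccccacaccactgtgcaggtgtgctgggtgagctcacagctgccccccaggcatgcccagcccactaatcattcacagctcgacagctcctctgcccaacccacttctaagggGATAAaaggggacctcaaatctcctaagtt
Of 32851 windows of this length, 13.35% held GATAA and 4.24% held TGANTCA. The former was present in 1 of the 3 uroplakin family windows and in 2 of the 2 basal keratin windows in the table. A match is a description of the letters only.

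In normal sections, members were compared with all other spots of the same section on summed counts, leaving the rule genes out of the test. Of 15233 genes tested, 2492 (16.4%) were higher and 2858 (18.8%) were lower in members at an adjusted p under 0.05. Without normal sections 1 and 2 the higher counts were 1336 and 1380 and the lower ones 2378 and 2098. These counts are relative to a scaling (TMM) that centres the median gene near 0. With library size alone the median gene was at 0.56 on the log2 scale (0.01 with TMM) and the split became 5199 higher and 1536 lower, so a direction near 0 holds only relative to that centre.

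Other urothelial genes rose together in the members. Since the same cells make the rule genes, these differences follow in part from how the members were chosen. All 21 tested genes of the urothelial list (rule genes left out) were higher, with a median log2 difference of 4.71 against 0.01 over all genes. Ly6d (chr15:74762056-74763620), a GPI-anchored surface protein of epithelia, was at 1251 and 1572 CPM in members and 16.6 and 37.3 CPM in other spots (log2 difference 5.25 ± 0.18). Fxyd3, a sodium pump regulator, was at 476 and 686 CPM against 6.68 and 23.3 (4.92 ± 0.17). Both sections lay far above their other spots for each gene.

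Among genes with an average log2 CPM of at least 4, the largest rise was that of Sprr2a3, a small proline-rich protein of the cornified envelope, at 544 and 473 CPM against 3.56 and 7.70 (6.02 ± 0.19). Sptssb, a small subunit of the enzyme that starts sphingolipid synthesis, followed at 641 and 812 CPM against 7.13 and 19.5 (5.35 ± 0.17). The gasdermins Gsdmc2 and Gsdmc3 rose by 5.07 and 5.14, and Sprr1a by 5.32. The other genes that the rule of size named were Krt19, Krt15, Krt18, Upk3b, S100a14, Vsig2, Nupr1 and Fam25c, with log2 differences between 4.33 and 5.20. Snx31, which encodes a sorting nexin that binds uroplakins, was at 173 and 261 CPM against 9.30 and 14.8, and Rab27b, a vesicle GTPase of umbrella cells, at 116 and 143 CPM against 2.35 and 6.28 (4.46 ± 0.24). In the list of genes of uroplakin vesicle traffic, 5 of 10 rose (median 0.18), where 16.4% of all genes rose.

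Keratins marked both layers. Of 13 tested, 11 rose, with a median of 4.31. Krt19 was at 653 and 683 CPM in members and 6.72 and 21.5 in other spots (5.20 ± 0.19). Krt14 was at 74.0 and 108 CPM against 0.638 and 2.79 (5.34 ± 0.28), and Krt15 at 165 and 208 against 1.75 and 9.03 (4.82 ± 0.22). Krt7 and Krt8, keratins of simple epithelia, rose by 2.46 ± 0.16 and 2.21 ± 0.15. Krt20, the keratin of umbrella cells, had only 3.08 and 14.4 CPM in members and 0.342 and 0.223 in other spots (4.31 ± 0.66).

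Transcription factors of urothelium were measurable even at low counts. Of 16 tested, 12 rose with a median of 3.04 and none fell. Grhl3, needed for umbrella cell differentiation, was at 24.7 and 60.4 CPM against 0.456 and 1.08 (5.23 ± 0.45), and Foxa1, a pioneer factor of luminal fate, at 95.5 and 169 against 1.05 and 5.17 (5.07 ± 0.26). Trp63, the p63 gene of basal cells, was at 23.1 and 34.2 against 0.570 and 1.26 (4.45 ± 0.47). Klf5, Gata3, Pparg, Elf3 and Ehf rose by 4.48, 3.24, 2.52, 2.77 and 2.95. For Ovol1 the log2 difference was 0.75 (adjusted p = 0.14).

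Tubules also carry junction and barrier genes. In this list 16 of 20 were higher, with a median of 1.66. Cldn4, a tight junction claudin, was at 314 and 373 CPM against 13.0 and 29.0 (3.56 ± 0.16), and Ppl, the cornified envelope linker periplakin, at 74.0 and 70.9 against 2.42 and 6.51 (3.56 ± 0.26). Dsp (desmoplakin) rose by 2.87 and Cdh1 (E-cadherin) by 1.53. Of genes for adhesion to the basement membrane, 7 of 11 rose and 1 fell. Itgb4, the hemidesmosome integrin, rose by 3.53 and Lamb3, a laminin chain, by 3.48, while Itga6, the partner of Itgb4 that tubules and vessels also make, fell by 0.97 relative to the other spots.

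Genes for signals between epithelium and stroma ranged from a few counts upward. Shh, the hedgehog ligand of urothelium, had 4.62 and 19.7 CPM in members and 0.456 and 0.632 in other spots (3.86 ± 0.66), and its call was lost without normal section 2. Its stromal target Gli1 had 4.62 and 9.20 CPM (1.81, adjusted p = 0.035), and for the receptor Ptch1 the difference was 0.17 (adjusted p = 0.73). Wnt4 was at 78.6 and 46.0 CPM against 1.62 and 3.38 (4.13 ± 0.33), and Wnt7b, Wnt10a and Wnt9b rose by 2.36, 4.05 and 2.77. Of 13 tested genes of these pathways 8 rose and 1 fell, and 5 and 4 rose without normal sections 1 and 2.

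**Figure D3:**
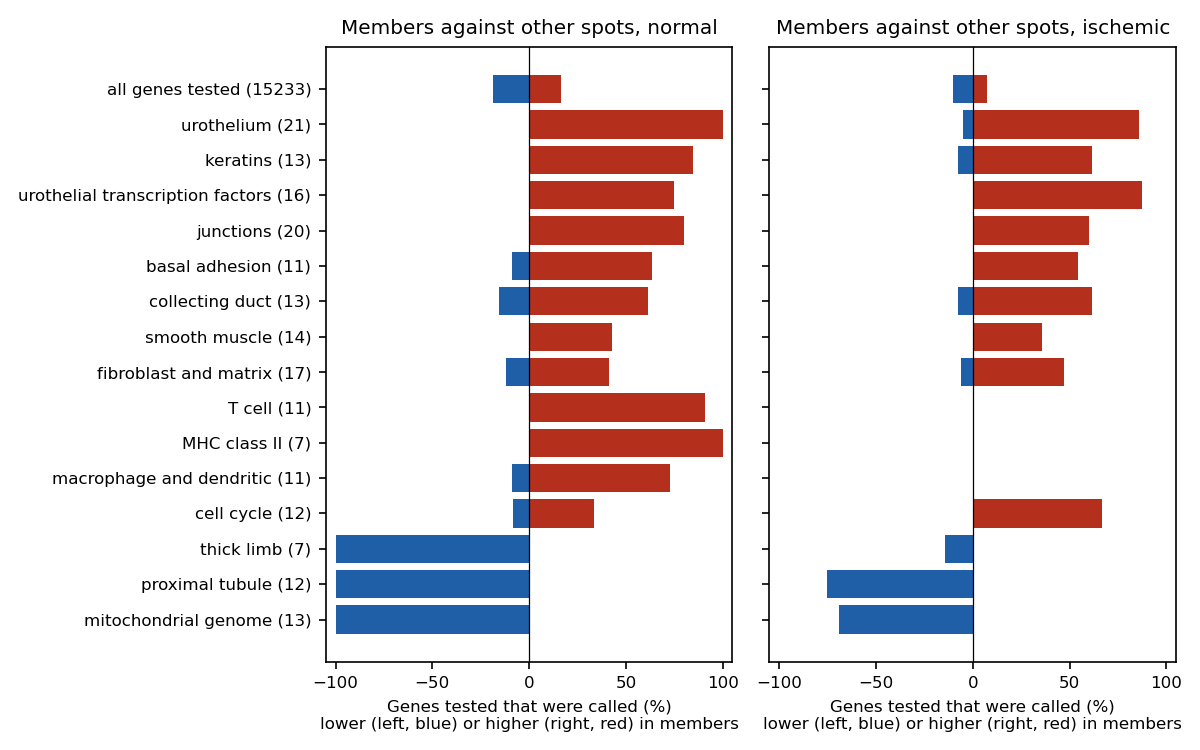
Share of each gene list called in members against other spots, in normal (left) and ischemic (right) sections. Bars give the percent of tested genes (number in brackets) that were higher (red, right) or lower (blue, left) at an adjusted p under 0.05, with all genes tested on top. All 21 urothelial genes were higher in normal sections, and all 12 proximal tubule genes were lower there.

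Tubule genes fell in normal members. All 12 proximal tubule genes were lower (median -3.12). Slc34a1, the proximal phosphate transporter, was at 231 and 188 CPM in members and 2004 and 2092 in other spots (-3.86 ± 0.18), and Lrp2 (megalin) at 112 and 60.4 against 556 and 541. All 7 thick limb genes were lower (median -2.44), with Slc12a1 at 87.8 and 155 CPM against 358 and 535 (-2.44 ± 0.17). Among the largest falls by the rule of size were distal genes. Calb1, a calcium-binding protein of distal tubule, was at 6.16 and 6.57 CPM against 182 and 221 (-5.54 ± 0.28), S100g at 94.0 and 109 against 2174 and 2808 (-5.17), and Klk1, the tubular kallikrein, at 174 and 183 against 5124 and 5830 (-5.50 ± 0.21). Pvalb, Folh1, Enpp6, Cyp2a5 and Dleu7, with 1 or 2 counts each in members, were also among these. Fgb, which the rule named too, had 0 counts in members and 122 in other spots, too few for a limit on its difference. Gm15883 had 0 counts in members and was at least 17.0-fold lower, taking 3 counts over both sections as the limit. Tubule transcripts were still present in the members, as the values above show.

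Mitochondrially encoded genes fell as a group, 13 of 13 with a median of -1.37. mt-Co1, a subunit of cytochrome c oxidase, was at 4426 and 4510 CPM in members and 8878 and 8106 in other spots, and mt-Nd1, of complex I, at 1509 and 1574 against 2880 and 2700 (-1.42 ± 0.17). The median UMI count per spot moved with this group, as given above, and its part was not tested.

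Neighbouring tissue was present in the member spots. Of 13 collecting duct genes, 8 rose and 2 fell, while the list summed to 10154 and 6400 CPM in members and 10559 and 11119 CPM in other spots. The water channel Aqp2 was at 3312 and 1448 CPM against 239 and 339 (2.39 ± 0.20), Fxyd4 at 1484 and 1202 against 146 and 259, and the aldose reductase gene Akr1b3, which makes the osmolyte sorbitol, at 2082 and 1458 against 149 and 170. Of 14 smooth muscle genes 6 rose (median 0.46), 2 of them without normal section 2 and 11 with library size alone. Acta2 was at 188 and 359 CPM against 87.0 and 126 (0.77 ± 0.15), and this call was lost without normal section 2. In the fibroblast and matrix list 7 of 17 rose and 2 fell, against 4 and 4 without normal section 1. Dcn (decorin) was at 236 and 273 CPM against 56.2 and 91.4 (1.26 ± 0.15) and Postn (periostin) rose by 2.28. All 5 red cell genes were lower in members, with Hbb-bs at 1882 and 2707 CPM against 4450 and 4412 (-1.53 ± 0.18).

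Immune genes differed in normal members. All 7 genes of the MHC class II list rose, with a median of 1.25. Cd74, the invariant chain, was at 1379 and 1290 CPM in members and 318 and 420 in other spots (1.30 ± 0.16), and H2-Eb1 at 415 and 560 against 112 and 167 (1.25 ± 0.14). Of 11 macrophage and dendritic cell genes 8 rose and 1 fell, and 5 rose without normal section 1. C1qb, a complement chain of macrophages, was at 200 and 243 CPM against 45.2 and 71.9 (1.38 ± 0.15), and Itgax (CD11c) at 13.9 and 13.1 against 1.53 and 3.12. The chemokines Cxcl9, at 38.5 and 86.7 CPM against 4.40 and 9.78 (2.60 ± 0.29), and Ccl17, at 26.2 and 110 against 1.23 and 6.32 (3.69 ± 0.33), rose as well. Ubd, an inflammation-induced ubiquitin-like protein, was at 154 and 101 CPM against 1.28 and 4.61 (5.06 ± 0.32).

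Most T cell calls were lost without normal section 2, although the list summed higher in members than in other spots of both normal sections. Of 11 tested, 10 were higher in normal members, against 6 by DESeq2 and 2 without normal section 2. The list summed to 53 counts in the members of normal section 1 and 195 in those of normal section 2 (81.7 and 256 CPM, against 20.0 and 37.5 in other spots), and 1 spot of section 2 alone held 32 counts. At least 1 T cell count was found in 35.4% and 34.6% of normal members and in 19.4% and 18.2% of other spots. Cd3g was at 17.0 and 36.8 CPM against 2.44 and 4.13 (2.47 ± 0.42), and Trac, the T cell receptor alpha constant gene, at 7.71 and 35.5 against 3.12 and 5.58 (1.72 ± 0.42). Fcer1g, the Fc receptor gamma chain that the study follows as a DN T cell gene and that myeloid cells also express, was at 64.7 and 95.9 CPM against 25.6 and 36.8 (0.81 ± 0.19), a call lost without normal section 2. Cd44, an adhesion receptor, was at 13.9 and 31.5 CPM against 1.82 and 2.90 (2.71 ± 0.37). Of the 6 tested genes that the study linked to DN T cells 5 rose, and 2 without normal section 2.

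In ischemic sections the same comparison called fewer genes. Of 15233 genes, 1152 (7.56%) were higher and 1576 (10.3%) lower in members, and with library size alone the median gene was at 0.23 (-0.04 with TMM) and the split was 1986 and 901. With TMM but without ischemic section 2 the split was 420 and 921, and by DESeq2 it was 730 and 862.

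Urothelial genes still stood out. In the urothelial list 18 of 21 were higher and 1 lower, with a median log2 difference of 4.30 against -0.04 over all genes. Sptssb was at 75.2 and 151 CPM in members and 0.495 and 0.514 in other spots (7.45 ± 0.27), Gsdmc3 at 89.4 and 148 against 0.495 and 1.03 (7.01 ± 0.30), and Ly6d at 150 and 270 against 2.08 and 1.90 (6.39 ± 0.22). Levels in members were below those in normal members for each of these, and levels in the other spots were lower too. Among basal keratins Krt14 was at 99.8 and 181 CPM against 0.892 and 1.15 (6.78 ± 0.27) and Krt15 at 89.4 and 153 against 1.45 and 2.25 (5.74 ± 0.26). Of 16 transcription factors 14 rose with a median of 1.76, and 9 without ischemic section 2. Foxa1 was at 51.8 and 50.5 CPM against 0.363 and 0.593 (6.47 ± 0.38).

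The other rises that the rule of size named were Sprr2a3, Gsdmc2, Igfbp2, Fxyd3, Cbr2, Lypd2, Snx31, Krt19, Depp1 and Upk3b, between 3.88 and 6.78, together with Igkc. Igkc, the immunoglobulin kappa constant gene, had 79 counts in the members of ischemic section 1 and 1 in those of section 2. Igha, the IgA heavy chain gene, had 86 and 0. Its log2 difference was 5.88 with both ischemic sections and -4.80 (adjusted p = 0.80) without ischemic section 1, and that of Igkc fell from 5.81 to 1.56 and was no longer called, so both rest on 1 section. In the falls, Cyp2a5 and Fmo1, drug-metabolizing enzymes of proximal tubule, were lower by 5.23 and 4.92 on the log2 scale. Slc26a4, the pendrin gene of intercalated cells, had 0 counts in ischemic members and was at least 4.24-fold lower. B3gat2, Slc22a28, Hsd3b3, Nat8f6 and Dio1 also had 0 counts there, with limits between 1.27-fold and 3.82-fold, and Tmem52b and Cyp4a14 complete the falls of the rule.

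In ischemic members 9 of 12 proximal tubule genes fell (median -2.79) and 1 of 7 thick limb genes fell (median -0.40), where 10.3% of all genes fell. Slc12a1 was at 79.1 and 68.3 CPM in members and 54.4 and 56.2 in other spots (0.15, adjusted p = 0.68). In the junction list 12 of 20 rose (median 0.79). Of 13 mitochondrial genes 9 fell, but 1 without ischemic section 2. All 5 red cell genes were higher in ischemic members, with Hbb-bs at 574 and 2461 CPM against 341 and 677 (1.05 ± 0.19), and 3 without ischemic section 2. A single spot held 1959 of the 3930 red cell counts in the members of ischemic section 2. At least 1 such count was found in 78.1% and 79.7% of ischemic members and in 82.0% and 76.0% of other spots. Of 13 collecting duct genes 8 rose and 1 fell, and the list summed to 5465 and 6922 CPM in members and 6195 and 6108 CPM in other spots. Aqp2 was at 975 and 2331 CPM against 229 and 315 (2.22 ± 0.19).

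Of the immune lists, none of the 11 T cell, 7 MHC class II or 11 macrophage and dendritic cell genes was called in ischemic members by edgeR, nor by DESeq2, and the number with an unadjusted p under 0.05 was 0, 0 and 1. The T cell list summed to 6 and 5 counts, 7.78 and 7.42 CPM in members against 4.56 and 5.02 in other spots, and Cd3d, Cd3e and Cd3g had no count in members, so a difference was not detectable at this depth. Cd74 was at 104 and 52.0 CPM against 49.8 and 52.3 (0.34, adjusted p = 0.30). Fcer1g was at 44.1 and 29.7 CPM against 40.0 and 38.7 (-0.35, adjusted p = 0.32), with a sign that depended on how members were chosen, and Cd44 at 36.3 and 29.7 against 21.7 and 21.3 (0.35, adjusted p = 0.43).

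Whether the member difference itself changed with ischemia was tested by the interaction of condition and membership. The signed log2 difference was higher in ischemic sections for 609 genes (4.00%) and lower for 600 (3.94%). A higher value can also be a difference that was less negative or whose sign turned, and a lower value one that was less positive. The 2 counts were 497 and 284 without normal section 1, 321 and 368 without normal section 2, 381 and 469 without ischemic section 1, and 256 and 230 by DESeq2. With library size alone the split was 322 and 1195 and the median gene was at -0.31 (-0.02 with TMM).

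Krt20, Gsta1, Flnc and Sprr2f, which rose over whole sections after ischemia, were among the largest decreases. Krt20 was at 3.08 and 14.4 CPM in normal members and 123 and 65.3 in ischemic ones, while other spots went from 0.342 and 0.223 to 227 and 248 CPM (change -5.91 ± 0.73). Krt20 was thus lower in ischemic members than in the other spots, by 1.60. Sprr1a was at 3723, 5107, 1357 and 1639 CPM in members and 41.1, 132, 437 and 418 in other spots (-3.79 ± 0.25). Sfn, the stratifin gene of squamous cells, was at 271, 339, 222 and 224 CPM in members and 10.0, 17.6, 125 and 135 in others (-3.43 ± 0.21). Gsta1, Flnc, Sprr2f, Aldh1a7, Fam25c and Uchl1 changed by between -5.35 and -3.41. In the injured tubule list 8 of 14 tested genes had a lower difference in ischemic sections and none a higher one, and 4 without normal section 1. In normal sections 8 of 14 genes of this list were higher in members (16.4% of all genes), with a median of 1.46. The list summed there to 8975 and 10408 CPM in members and 847 and 1321 CPM in other spots. Cldn4 went from 314 and 373 to 303 and 398 CPM in members and from 13.0 and 29.0 to 157 and 141 CPM in other spots (-2.61 ± 0.22).

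Among the increases, Car15, a carbonic anhydrase, stood at 7.71, 15.8, 222 and 245 CPM in members and 106, 112, 158 and 165 in other spots (4.00 ± 0.31). Igkc and Igha led the list but rest on ischemic section 1, as above, and Igha turned to -4.92 without it. Clec2h turned to -3.14 without ischemic section 1. Arhgef39, Serpinb1a, Car12, Pcsk6, Afmid and 3110045C21Rik changed by between 3.13 and 3.99, and for Serpinb1a, Afmid and 3110045C21Rik the call was lost without ischemic section 1. Umod, the thick limb glycoprotein, was at 886, 667, 3332 and 2957 CPM in members and 3091, 3533, 2714 and 2798 in others (2.58 ± 0.24), and 5 of 7 thick limb genes passed in this direction, 3 without ischemic section 1. Of the urothelial list 4 genes had a higher difference in ischemic sections and 7 a lower one, with none and 6 by DESeq2, against 6 and 4 without normal section 1 and 0 and 5 without normal section 2. In the macrophage and dendritic cell list 6 of 11 had a lower difference, and 3 without either normal section or without ischemic section 2. In the MHC class II list 3 of 7 did, and none without normal section 1. The difference of mitochondrial genes was less negative in ischemic sections, with medians of -1.37 and -0.65. It passed for 8 of 13, but for none by DESeq2, with library size alone or without ischemic section 1, and 2 and 1 without normal sections 1 and 2.

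Some genes of the cell cycle list separated the conditions. Of all genes, 7.56% rose and 10.3% fell in ischemic members, and 16.4% rose and 18.8% fell in normal members. In ischemic members 8 of 12 cell cycle genes rose over other spots (median 3.63) and none fell. In normal members 4 rose and 1 fell, and none passed without normal section 1. Mki67, the proliferation antigen Ki-67, was at 9.25, 9.20, 42.8 and 52.0 CPM in members and 1.30, 2.49, 0.892 and 0.989 CPM in other spots. Its difference was 1.74 ± 0.59 in normal and 5.36 ± 0.40 in ischemic sections, a change of 3.62 ± 0.61 (adjusted p = 1.3e-05). Over whole sections its level was lower by 0.17 in ischemic sections (adjusted p = 0.61).

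Birc5 (survivin), a chromosomal passenger protein, was at 7.71, 10.5, 55.7 and 53.4 CPM in members and between 1.85 and 2.94 in other spots (change 3.24 ± 0.56). Cdk1, the mitotic kinase, was at 3.08, 2.63, 37.6 and 52.0 CPM (change 3.23 ± 0.74), and its cyclin partner Ccnb2 at 1.54, 1.31, 20.7 and 22.3 CPM (change 4.63 ± 1.03). Both ischemic sections were above both normal sections for each of these genes. The normal member values of Cdk1 and Ccnb2 rest on a few counts per section at most. Of all genes, 4.00% had a higher difference in ischemic sections. The change passed for 7 of 12 genes, 4 by DESeq2 and 4 without normal section 2. Of genes used in DNA replication, Pcna was at 55.5, 63.1, 101 and 119 CPM in members and 27.2, 31.4, 71.3 and 71.2 in other spots (change -0.11, adjusted p = 0.88). For Mcm2 the change was -0.60 (adjusted p = 0.51) and for Mcm5 -0.55 (adjusted p = 0.59). For Rrm2 it was 0.73 (adjusted p = 0.55), and Tyms passed with 1.56 ± 0.44 (adjusted p = 0.013).

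The counts came from many spots. Mki67, Top2a, Cdk1, Ccnb1, Ccnb2, Ccna2 and Birc5, a subset taken after the values were seen and so not tested, had at least 1 count in 12 of 79, 16 of 81, 33 of 73 and 32 of 79 member spots, that is 15.2%, 19.8%, 45.2% and 40.5%. Among other spots the shares were 8.71%, 8.27%, 9.66% and 6.63%. For the full cell cycle list the shares were 53.2%, 55.6%, 72.6% and 75.9% of members. They were 58.8%, 45.1%, 77.9% and 69.7% of other spots, so members did not lie above other spots in every section. The 7 genes summed to 20, 26, 157 and 172 counts in members, with 20 and 23 in the highest ischemic spot.

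**Figure D4:**
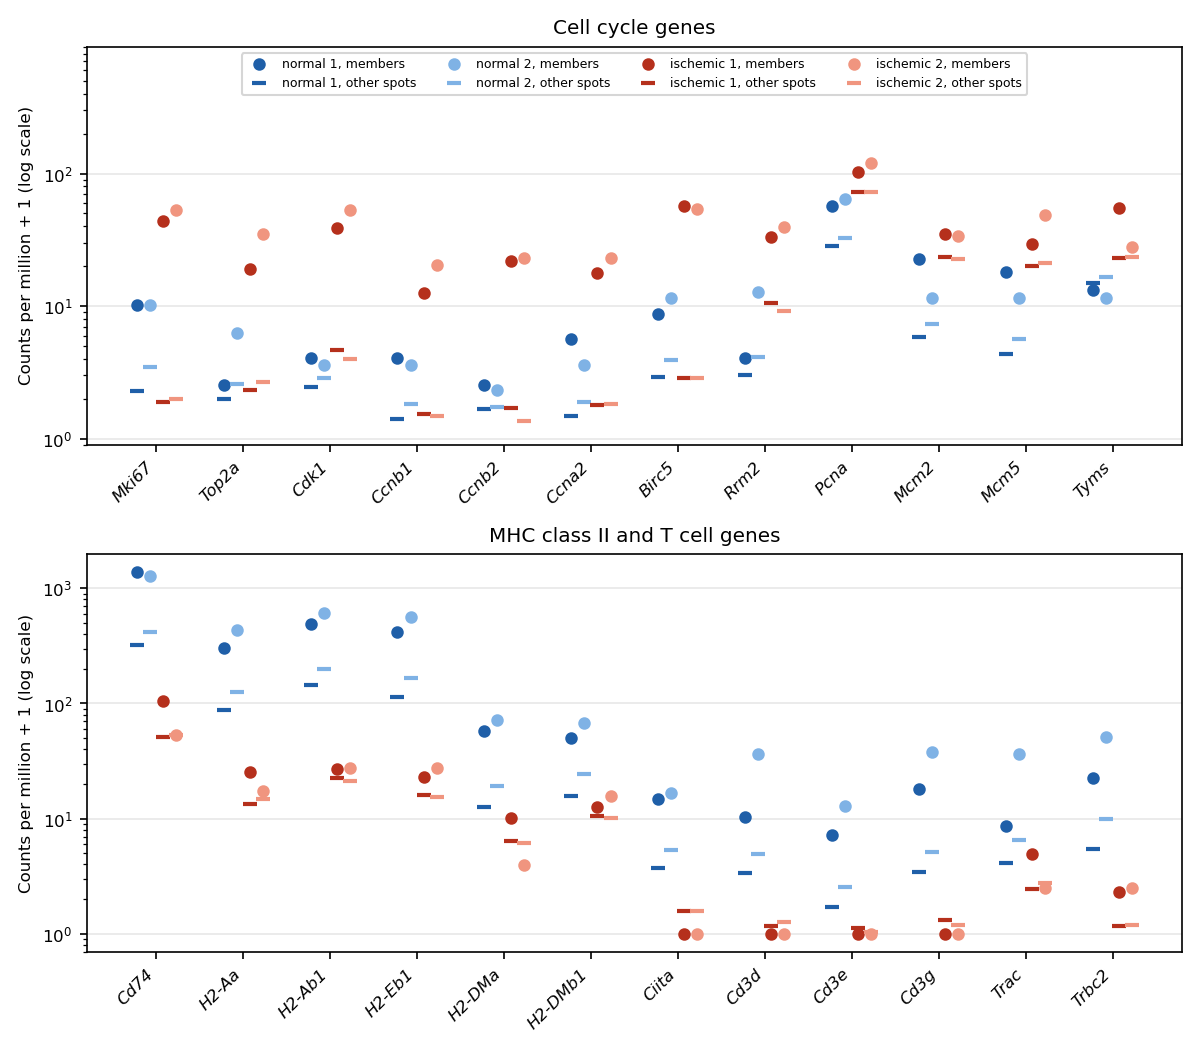
Cell cycle genes (top) and MHC class II and T cell genes (bottom) in each section. The vertical axis is CPM plus 1 on a log scale, points are member spots and dashes other spots, blue for normal and red for ischemic sections. Mki67 in members sat at 9.25 and 9.20 in the normal pair, against 42.8 and 52.0 in the ischemic pair, and Cd74 at 1379 and 1290 against 104 and 52.0.

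The start regions of 3 of these genes are shown because the genes rose together. Capitals mark CCAAT, the letters bound by NF-Y, and TTTGAA, the letters of the CHR element of late cell cycle genes, on either strand, in the 150 bases before the start from RefSeq (GRCm38.p6). The windows are chr9:70421555-70421704 for Ccnb2, chr7:135716380-135716529 for Mki67 and chr11:99024190-99024339 for Top2a, all 3 on the minus strand.
Ccnb2: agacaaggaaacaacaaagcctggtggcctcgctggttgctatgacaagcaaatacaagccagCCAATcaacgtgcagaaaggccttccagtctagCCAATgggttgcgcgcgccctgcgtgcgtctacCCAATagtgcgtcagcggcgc
Mki67: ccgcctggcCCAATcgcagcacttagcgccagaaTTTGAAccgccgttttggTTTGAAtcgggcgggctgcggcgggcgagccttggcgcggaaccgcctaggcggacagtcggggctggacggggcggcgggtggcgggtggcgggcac
Top2a: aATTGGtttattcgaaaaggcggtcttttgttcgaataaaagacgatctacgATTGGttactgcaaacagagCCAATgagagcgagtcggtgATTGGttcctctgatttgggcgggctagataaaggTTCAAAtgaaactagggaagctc
ATTGG and TTCAAA are the same motifs on the other strand. CCAAT was in 8 of the 11 cell cycle windows in the table and TTTGAA in 4, against 24.5% and 9.07% of all 32851 windows. The matches of both motifs did not overlap in the windows shown, and absence says only that these letters are not in this window.

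Members of ischemic sections were also compared directly with members of normal sections. Of 8796 genes 616 (7.00%) were higher and 868 (9.87%) lower, against 233 and 374 by DESeq2. Lcn2 (NGAL, a siderophore-binding protein) went from 69.3 and 51.2 CPM to 6793 and 10508 CPM in members (7.11 ± 0.32), and rose by 8.78 over whole sections. Havcr1 (KIM-1), the proximal injury marker, had 0.00 and 2.63 CPM in normal and 841 and 272 CPM in ischemic members, where other spots had 1423 and 1443 CPM. Mt2 (metallothionein) went from 35.4 and 52.5 to 2410 and 2378 CPM (5.71 ± 0.28). The injured tubule list rose in 10 of 12 tested genes, with a median of 2.80 against 0.01 over all genes. Tubule transcripts were present in the members of both conditions, and their part was not tested.

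The other rises by the rule of size were S100a8, Aldh1a2, Slc34a2, Slpi and Sprr2f, which had between 1 and 3 counts in normal members against 116, 91, 90, 231 and 163 in ischemic ones, and Hesx1 and Fgb, which had 0 counts in normal members and were each at least 13.0-fold higher. These genes, and Havcr1, passed the low-count filter only through the ischemic members, so the filter set their direction. Slpi was at 285 CPM in ischemic section 1 and 16.3 in section 2. Cell cycle genes rose in 10 of 11 tests, 4 by DESeq2 and 6 without ischemic section 2. They also rose over whole sections in 6 of 12 tests, where 31.0% of all genes rose, and the list summed to 58.6 and 72.5 CPM in other normal spots and 154 and 153 CPM in other ischemic spots, against 140 and 141, and 454 and 520 CPM, in members. Between members Mki67 was higher by 2.29 ± 0.40 and Cdk1 by 3.85 ± 0.52. Both genes passed the low-count filter only through the ischemic members, so the filter set their direction. The same can hold for other genes of this list with few counts in normal members. With no low-count filter Mki67 was higher by 2.33. The 8 genes of the neutrophil list summed to 1 and 5 counts in normal members and 171 and 57 in ischemic ones. Of these only S100a8 and S100a9 had enough counts to be tested, and only through the ischemic members, so the filter set their direction. In the fibroblast and matrix list 5 of 11 tested genes rose and 2 fell, with a median of 0.74. Col1a1 went from 24.7 and 32.8 to 126 and 134 CPM (2.11 ± 0.28) and Col3a1 rose by 1.94, and both also rose over whole sections, by 1.83 and 2.06.

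In the urothelial list 5 of 20 tested genes rose and 8 fell between members, with a median of -0.76. The split was 2 and 7 by DESeq2 and without normal section 2, and 2 and 10 without ischemic section 2. Ly6d fell by 2.80 ± 0.26, Sptssb by 2.74 ± 0.28, Snx31 by 3.11 ± 0.39, Rab27b by 2.49 and Upk3b by 2.17. The 6 tested MHC class II genes all fell, with a median of -4.15. Cd74 went from 1379 and 1290 to 104 and 52.0 CPM (-4.12 ± 0.30), and fell by 3.17 over whole sections. Cxcl9 had 25 and 66 counts in normal members and 0 in ischemic ones, at least 31.1-fold lower, and Cd3g and Ptprcap were at least 13.3-fold and 19.1-fold lower. The T cell list was lower over whole sections too, at 20.9 and 43.5 CPM in normal and 4.64 and 5.09 CPM in ischemic sections. Ccl17, Ubd and Slc22a7, a proximal transporter, had 101, 177 and 254 counts in normal members and 1, 3 and 3 in ischemic ones. Cxcl9, Cd3g, Ptprcap, Ccl17, Ubd and Slc22a7 passed the low-count filter only through the normal members, so the filter set their direction. Of 7 macrophage and dendritic cell genes 6 fell, 3 by DESeq2, with a median of -1.50. Basal genes gave other values. For Krt14 the log2 difference was 0.56 (adjusted p = 0.19), for Krt15 -0.68 (0.080), for Trp63 -0.83 (0.17) and for Krt19 -0.35 (0.35). Krt4, a keratin of stratified epithelium, rose from 3.08 and 1.31 to 14.3 and 23.8 CPM (adjusted p = 0.0051). It passed the low-count filter only through the ischemic members, so the filter set its direction.

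The inner medulla lies next to the pelvis, and 127, 131, 117 and 127 spots were taken as inner medulla (top 5% by Slc14a2, Akr1b3, Cryab, Aqp2 and Fxyd4, members left out). Of these, 37, 46, 0 and 6 touched a member. The spots so chosen were unlike in the 2 conditions. They held the 6 rule genes at 1675 and 3990 CPM in normal and at 8.95 and 13.6 CPM in ischemic sections, and the 8 adipocyte genes at 7888 and 4200 against 332 and 309 CPM. The collecting duct list was at 15372 and 16597 against 4410 and 4112 CPM. Over whole ischemic sections this list was higher, at 6177 and 6129 CPM. The proximal tubule list was at 25396 and 25975 CPM in the ischemic spots so chosen, and 23132 and 21678 CPM over whole ischemic sections. For ischemic sections the name inner medulla thus stands for the rule only, and these lists do not bear it out. The values of both conditions below are therefore against unlike spots, and no difference between the conditions was tested. In normal sections, 335 of 9792 genes (3.42%) were higher and 281 (2.87%) lower in members than in inner medulla spots. In ischemic sections 1252 (12.8%) were higher and 1344 (13.7%) lower. For both directions together the count by DESeq2 was 97 in normal and 699 in ischemic sections. By edgeR it was 371 without normal section 1 and, in ischemic sections, 889 without ischemic section 2.

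Urothelial genes were higher in members than in the inner medulla in 16 of 20 tests in each condition, with medians of 1.98 and 4.55, and 2 were lower in ischemic sections. Krt14 was higher by 3.87 ± 0.39 in normal sections, and in ischemic sections it had 199 counts in members and 3 in the inner medulla. Sprr2a3 had 67.3 and 71.1 CPM in normal and 0.559 and 0.00 CPM in ischemic inner medulla, and was higher in members by 2.87 in normal sections. In ischemic sections it had 226 counts in members and 1 in the inner medulla. Reg3g, a secreted antibacterial lectin, was higher by 4.13 ± 0.50 in normal sections, at 37.0 and 65.7 CPM, and at least 26.7-fold higher in ischemic sections, where inner medulla had no count. Reg3g and Krt14, with 5 and 11 counts in normal inner medulla, passed the low-count filter only through members, so the filter set their direction. The same can hold for other genes named here with few inner medulla counts. Mmp7, a matrix protease, was at least 10.7-fold higher in normal sections, at 33.9 and 2.63 CPM, and its call was lost without normal section 1. Ubd, Clca3a1, Tgfa, Tyro3 and Pigr were higher by 4.56, 3.10, 2.94, 2.85 and 2.84 in normal sections. Ccl17 was higher there by 3.47, and the call was lost without normal section 2. Of 17 fibroblast and matrix genes, 11 were lower in normal members (1 by DESeq2, 4 and 5 without normal sections 1 and 2), and in ischemic sections 11 were higher (4 by DESeq2, 6 and 7 without ischemic sections 1 and 2). Other tissue genes moved with them. All 7 tested adipocyte genes were lower in normal members (median -4.04, 4 by DESeq2) and 1 of 7 in ischemic members. Of 7 endothelial genes 5 were lower in normal members (none by DESeq2) and 2 in ischemic ones. The part of these cells in the fibroblast and matrix counts was not tested.

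Cell cycle genes were higher in members in 8 of 11 tests against the ischemic spots taken as inner medulla (12.8% of all genes). Against the normal inner medulla none of 11 was called by edgeR or DESeq2, and 2 had an unadjusted p under 0.05. The list summed to 94.3 and 107 CPM in normal and 152 and 150 CPM in ischemic inner medulla spots. Mki67 had 33 and 35 counts in ischemic members and 0 in the inner medulla of both sections, and in normal sections it had 6 and 7 counts against 3 and 2 (1.74, adjusted p = 0.20). It passed the low-count filter only through the ischemic members, so the filter set its direction in ischemic sections. The same can hold for other cell cycle genes with few counts. Sptssb, Gsdmc2, Krt15, Gsdmc3 and Capn13 were also higher in ischemic members, with 160, 227, 172, 169 and 78 counts against 1, 2, 2, 2 and 1 in the inner medulla. Ly6d had 298 against 5, and Igha, with 86 and 0 counts in members, rests on ischemic section 1.

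Levels were also summed by distance from the nearest member. Uroplakin counts fell from 3773 and 4625 CPM in normal members to 979 and 1254 CPM 1 step away and 17.0 and 66.7 CPM at 5 or more steps. In ischemic sections they fell from 349 and 655 to 64.5 and 92.0 and then to 1.34 and 1.93 CPM. Part of this slope is set by the rule. Basal keratins, of which only Krt5 was in the rule, went from 274 and 405 CPM to 93.2 and 205 in normal and from 283 and 493 to 64.5 and 88.6 in ischemic sections.

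The 7 division genes, taken after the values were seen, were not used by the rule. They were at 203 and 255 CPM in ischemic members, 61.5 and 73.6 CPM 1 step away and 7.54 and 6.15 CPM at 5 or more steps. In normal sections they were at 30.8 and 34.2 CPM in members, 11.7 and 41.0 CPM 1 step away, where normal section 2 lay above its members, and 6.76 and 10.3 CPM at 5 or more steps. The full cell cycle list fell less steeply in ischemic sections. It went from 454 and 520 CPM in members to 244 and 269 CPM 1 step away and 149 and 145 CPM at 5 or more steps. In normal sections this list went from 140 and 141 CPM to 75.7 and 139 and then to 57.2 and 69.4 CPM. MHC class II genes in normal sections went from 2701 and 3042 CPM in members to 2017 and 3083 at 1 step, to 1201 and 2078 at 2 steps and 637 and 815 at 5 or more. In ischemic sections they were at 197 and 140 CPM in members and 115 and 115 at 5 or more steps.

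**Figure D5:**
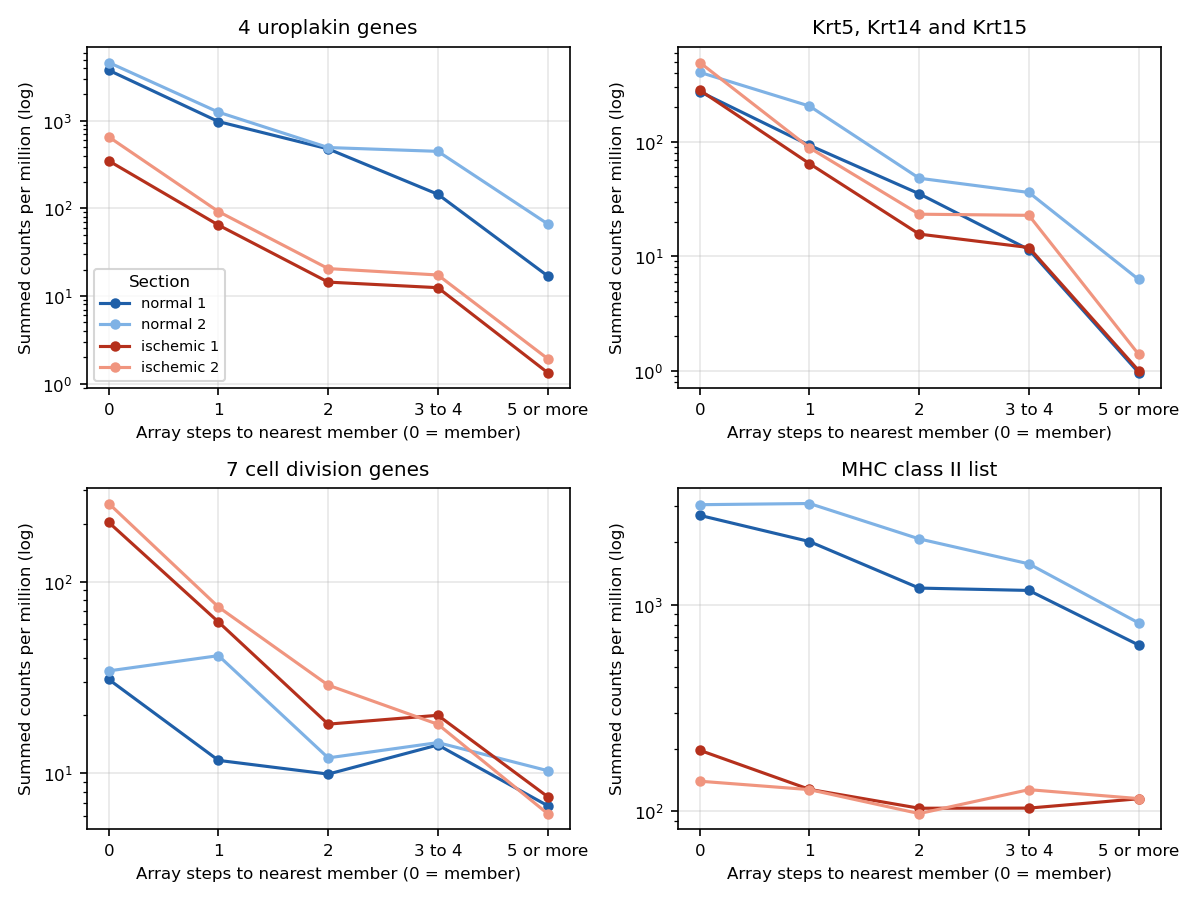
Summed level of 4 gene groups by distance from the nearest member spot. The horizontal axis is array steps (0 marks members), the vertical axis is summed CPM on a log scale, and each line is a section. Division genes in ischemic sections dropped from 203 and 255 in members to 7.54 and 6.15 at 5 or more steps. These genes are a subset taken after the values were seen. The full cell cycle list fell less steeply in ischemic sections, from 454 and 520 to 149 and 145. MHC class II genes in normal sections dropped from 2701 and 3042 to 637 and 815.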

How the data were processed

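Gene expression was measured with Visium in 2 normal and 2 ischemic kidney sections. The deposited files hold UMI counts per spot and gene that the authors made with Space Ranger 1.3.0 on mm10 (GRCm38), without normalization. Each table holds 32285 genes, and tissue spots were used as the authors marked them. Counts were summed per section over members and over other spots with Python 3.11.15. They were compared in edgeR 4.0.16 (R 4.3.3), by its quasi-likelihood test with TMM scaling, low-count filtering and the section as a block, except between members of the 2 conditions, where no block was used. Benjamini-Hochberg adjustment covered all genes but those that chose the spots, at a threshold of 0.05. CPM divides a sum by all UMIs of the same spots. DESeq2 1.42.0, other shares of members (1% and 5%), selection by a spot's own counts (at least 2) or by 4 uroplakin genes, at least 1000 UMIs per spot, other spots at least 3 steps away, library size scaling and leaving out each section were the alternatives.

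Tested on simulated counts for members against other normal spots (15239 genes), edgeR recovered 27 of 100 genes changed 2-fold and 67 of 100 changed 4-fold, with 3 false calls. The simulated sums shared the same gene profile apart from the changed genes, unlike the members and other spots of these sections. These numbers, the false calls among them, may therefore not carry over to the real data.

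The members, the 33 gene lists and the tests were chosen with earlier results of these data known. Genes named were the 6 rule genes, the 15 largest rises and 10 largest falls past the threshold with the same direction in both sections and an average log2 CPM of at least 4, 10 in each direction for the comparisons between conditions, 10 rises over the inner medulla, members of the lists, Fcer1g and Cd44. One gene that this rule named is not reported here. Intervals and limits cover counting error only.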

Additional observations from a re-analysis of the deposited data

Results flagged for a closer look

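By the interaction test in edgeR, the difference between members and other spots passed as unlike in the conditions for these 19 genes. They were taken by the rule of size, and some calls were lost in other settings, as given above. By DESeq2 the call was lost for Igha (adjusted p = 0.50) and Clec2h (adjusted p = 0.53, against 0.042 by edgeR). The signed difference was higher in ischemic sections for Igkc (7.89 on the log2 scale), Igha (5.77), Clec2h (4.16), Car15 (4.00), Arhgef39 (3.99), Serpinb1a (3.71), Car12 (3.39), Pcsk6 (3.31), Afmid (3.20) and 3110045C21Rik (3.13). That of Car15 was negative in normal sections (-3.74) and 0.26 in ischemic sections. The signed difference was lower in ischemic sections for Krt20 (-5.91), Gsta1 (-5.35), Flnc (-4.49), Sprr2f (-4.01), Sprr1a (-3.79), Aldh1a7 (-3.73), Fam25c (-3.69), Sfn (-3.43) and Uchl1 (-3.41). Igkc and Igha counts in ischemic members came almost wholly from ischemic section 1 (79 and 86 counts, against 1 and 0 in section 2). With 2 sections per group no section could be tested as standing apart from its group.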

How the results depend on the processing

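Counts of genes called moved by more than 1.5 times in these settings, and the cause was not tested. With the top 1% of spots as members, 3384 genes were called in normal sections (5350 as reported), 1630 in ischemic sections (2728), 494 for the change (1209) and 418 between members (1484). DESeq2 called 1592 in ischemic sections, 486 for the change, 607 between members, and 97 (616) and 699 (2596) against the normal and ischemic inner medulla. With the top 10% as inner medulla 1786 were called in normal sections. Leaving out 1 section at a time gave 3478 to 5368 in normal and 1341 to 2701 in ischemic sections, 689 to 1022 for the change, and 371 to 747 and 889 to 3097 against the inner medulla. The lowest values came without normal section 2 (3478 and 689), without ischemic section 2 (1341 and 889) and without normal section 1 (371). Without normal section 1 the change gave 781. Whole sections in place of members, a choice made after seeing the data, gave 9279 genes. Between members the count moved by no more than 1.5 times when 1 section was left out (1024 to 1338) or with the replicate number as a replicate block (1530), and the labels do not say that the numbers pair sections.

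Of 282 results for single genes, 55 lost their call in at least 1 setting and 12 changed sign. With the top 1%, Igkc went to -7.74 in ischemic sections and -4.62 for the change, and Igha to -7.80 and -5.56. Leaving out 1 section at a time, Igha ran from -4.80 to 6.19 in ischemic sections and from -4.92 to 8.02 for the change, and Clec2h from -3.14 to 12.2 for the change, each lowest without ischemic section 1. Fcer1g in ischemic sections went to 0.17 with the top 5% and 0.091 with members chosen by 4 uroplakin genes. Over whole sections the ischemic difference was -0.17 for Mki67, 0.15 for Krt19, 0.037 for Tyrobp, 0.032 for Fcer1g, 1.11 for Sprr1a and 0.13 for Ier2.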

Other observations

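Immediate early genes, which respond to signals and to handling of tissue, were higher in normal members in 6 of 9 tests, where 16.4% of all genes were higher. Junb, a subunit of AP-1, was at 170 and 248 CPM in normal members and 18.6 and 41.7 in other spots (2.30 on the log2 scale), and at 121 and 108 CPM against 82.0 and 85.4 in ischemic sections. By edgeR none of the 9 was higher in ischemic members, where 1 was lower (7.56% and 10.3% of all genes), none passed by DESeq2 and 2 had an unadjusted p under 0.05. With library size alone 1 was higher. Between members, 5 of 7 tested were lower in ischemic than in normal members (9.87% of all genes), against 3 by DESeq2 and without ischemic section 2.

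Genes of innate defense in the urinary tract were higher in normal members in 9 of 22 tests and lower in 2 (16.4% and 18.8% of all genes), with a median log2 difference of 1.31. In ischemic members 3 were higher and 5 lower (7.56% and 10.3% of all genes), with a median of -0.20, against 1 lower by DESeq2 and 5 higher and 1 lower without ischemic section 2. Reg3g was at 37.0, 65.7, 20.7 and 26.7 CPM in members and 0.0912, 1.00, 0.363 and 0.237 CPM in other spots, higher in members of both conditions (6.27 and 5.96). Lcn2 was at 69.3 and 51.2 CPM in normal members against 3.97 and 6.73 in other spots (2.96), and in ischemic sections at 6793 and 10508 against 2961 and 3442 (1.13). The neutrophil list summed to 222 and 84.6 CPM in ischemic members and 181 and 184 CPM in other spots, and 0 of its 6 genes were higher and 2 lower in members by edgeR.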
